A study of Homo sapiens with 9 samples.

Results

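The spliceosome removes introns with the help of small nuclear RNAs (snRNAs), each packed with proteins into a small nuclear ribonucleoprotein (snRNP). The 8 snRNA genes described here were taken by name from 58425 genes measured in nuclei of U2OS, a line derived from a human bone tumour: RNU4-1, RNU4-2, RNU5A-1 and RNU5B-1 of the major spliceosome, and RNU11, RNU12, RNU4ATAC and RNU6ATAC of the minor spliceosome. U2OS cells received 15 nM of an siRNA against dyskerin (siDyskerin), an siRNA against GAR1 (siGAR1) or a control siRNA (siControl) for 48 hours, with 3 libraries in each group. Dyskerin (gene DKC1) and GAR1 are proteins of the H/ACA ribonucleoprotein, which converts uridine to pseudouridine at sites chosen by a guide RNA. No gene was edited in any group, all groups were transfected, and each value is the average of a bulk nuclear fraction.

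Most introns are removed by the major spliceosome, in which U4 pairs with U6 and holds it inactive until the U4/U6.U5 tri-snRNP has joined, while U5 lines up the exon ends. A small class of introns is removed by the minor spliceosome, in which U11 and U12 recognise the 5′ splice site and the branch point, U4atac and U6atac replace U4 and U6, and U5 is shared. Sm proteins form a ring on a uridine-rich site of every snRNA except U6 and U6atac, which RNA polymerase III transcribes and which LSm proteins bind at a terminal uridine run. Pseudouridines are placed in snRNAs within Cajal bodies, where small Cajal body RNAs (scaRNAs) of the H/ACA type serve as guides for the dyskerin complex, so that snRNAs are substrates of the complex and not stable components of it.

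The 2 U4 genes had most of the reads and were read as separate transcripts, so their sequences are shown with the bases that differ between them in capitals (GRCh38, GENCODE gene models). RNU4-1 is at chr12:120293097-120293237 and RNU4-2 at chr12:120291763-120291903, both on the minus strand, and each gene is a single exon of 141 bases.
RNU4-1: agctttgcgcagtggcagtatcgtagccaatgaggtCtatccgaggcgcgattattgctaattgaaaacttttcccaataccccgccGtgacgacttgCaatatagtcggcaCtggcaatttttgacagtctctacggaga
RNU4-2: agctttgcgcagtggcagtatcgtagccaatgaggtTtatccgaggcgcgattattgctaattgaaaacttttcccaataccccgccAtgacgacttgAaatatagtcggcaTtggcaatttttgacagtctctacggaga

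Counted from 1 at the 5′ end of the RNA, the substitutions from RNU4-1 to RNU4-2 were C37T, G88A, C99A and C113T, which left the 2 RNAs 97.2% identical. Of the 92 stretches of 50 bases, the length of a sequenced end, 1 was the same in both genes. RNU5A-1 and RNU5B-1, on chromosome 15, differed at 7 of 116 bases (94.0% identity), and 9 of their 67 stretches of 50 bases were the same.

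The 4 minor spliceosome RNAs share little sequence and are shown with the letters AATTTTT, which lie within the Sm site, in capitals. RNU11 is at chr1:28648600-28648733 on the plus strand, RNU12 at chr22:42615244-42615393 on the plus strand, RNU4ATAC at chr2:121530881-121531007 on the plus strand and RNU6ATAC at chr9:134164439-134164564 on the minus strand.
RNU11: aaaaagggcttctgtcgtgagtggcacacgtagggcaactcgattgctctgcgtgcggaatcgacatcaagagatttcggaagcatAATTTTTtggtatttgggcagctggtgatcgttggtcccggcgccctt
RNU12: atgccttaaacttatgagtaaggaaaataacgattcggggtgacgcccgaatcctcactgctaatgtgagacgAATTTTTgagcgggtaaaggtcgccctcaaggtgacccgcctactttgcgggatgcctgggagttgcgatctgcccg
RNU4ATAC: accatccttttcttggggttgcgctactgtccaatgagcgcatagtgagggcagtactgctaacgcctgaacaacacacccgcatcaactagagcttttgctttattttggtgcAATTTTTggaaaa
RNU6ATAC: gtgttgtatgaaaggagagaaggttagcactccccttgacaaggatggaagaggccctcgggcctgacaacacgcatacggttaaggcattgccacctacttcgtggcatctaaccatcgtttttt

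The letters AATTTTT, searched on the transcribed strand only, was found once in 7 of the 8 members and in 5.61% of the 1570 annotated transcripts of 116 to 150 bases. The member without it was RNU6ATAC, which ends in a run of T. RNU11 lies within an exon of a longer noncoding gene on the same strand (ENSG00000270103), and RNU12 within an exon of another (ENSG00000270022). The longer gene had the same number of reads as RNU11 in 6 of 9 libraries, and 1.07 to 1.15 times the reads of RNU12. The counts of both members and of these genes therefore appear to share reads. Whether reads of the longer genes also stand in the member counts cannot be told from the counts. RNU4ATAC lies in introns of CLASP1 on the opposite strand and of CLASP1-AS1 on the same strand, and RNU5A-1 in an intron of PARP16 on the opposite strand. RNU12 also lies in an intron of ENSG00000289517, a protein-coding gene on the opposite strand. The reads were counted by strand.

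Libraries held 48838756 to 90698675 reads, and the 8 members had 2201 to 9228 reads in each. DKC1, the target of siDyskerin, averaged 3099 ± 24.1 normalized reads in siDyskerin nuclei and 21477 ± 1076 in siControl nuclei, and GAR1 averaged 96.9 ± 15.9 in siGAR1 nuclei and 618.6 ± 39.5 in siControl nuclei (SD, n = 3 each). Osteoblast and mesenchymal markers were read in every library (RUNX2 763 to 1424 reads, VIM 136235 to 310073 reads) except COL1A2 at 0 to 6 reads, epithelial EPCAM had 70 to 171 reads, CDH1 173 to 298 and KRT19 0 to 7, and the blood cell genes PTPRC and CD3E had 2 to 26 reads and 0 reads.

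Levels can be set between genes only per length, in TPM (a library's transcripts scaled to 1 fixed total, with reads divided by the length that fragments can start from). In siControl nuclei RNU4-2 stood highest, at 620.2 ± 128.2 TPM, followed by RNU4-1 at 536.1 ± 114.5 TPM (SD, n = 3), and the libraries of these 2 genes overlapped. RNU12 followed at 114.0 ± 16.5 TPM, RNU11 at 30.4 ± 5.73 TPM and RNU6ATAC at 21.1 ± 0.628 TPM, each clear of its neighbours. RNU4ATAC at 4.62 ± 0.596 TPM, RNU5B-1 at 3.38 ± 1.59 TPM and RNU5A-1 at 1.60 ± 0.872 TPM closed the order, and neighbours among these 3 overlapped. Means stood in the same order in siDyskerin and siGAR1 nuclei, although RNU11 and RNU6ATAC overlapped there. A fragment could start at 29 to 49 positions of a member, because the RNAs are 116 to 150 bases long. RNU5A-1 and RNU5B-1 rested on 1 to 16 reads per library. The order is that of the reads recovered, and how it relates to the amount of each RNA in the nucleus was not tested.

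The U4 pair dominated the reads of the major members. RNU4-1 had 1051, 1816 and 1257 normalized reads in siDyskerin libraries 1 to 3, 3579, 2066 and 2369 in siGAR1 libraries, and 1267, 1371 and 1869 in siControl libraries. All siGAR1 libraries stood above all siControl and all siDyskerin libraries, while siDyskerin and siControl overlapped. RNU4-2 had 1274, 2018 and 1481 normalized reads in siDyskerin libraries, 3887, 2214 and 2946 in siGAR1 libraries and 1478, 1587 and 2149 in siControl libraries, with the same separation. The share of RNU4-2 among U4 reads was 53.8% ± 1.09 in siDyskerin, 53.1% ± 2.04 in siGAR1 and 53.7% ± 0.179 in siControl nuclei (SD, n = 3 each), differences smaller than the spread of the siGAR1 libraries.

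The U5 genes were read only a few times per library. RNU5A-1 had 4, 5 and 3 reads in siDyskerin libraries, 9, 6 and 5 in siGAR1 libraries and 6, 4 and 1 in siControl libraries, before normalization. RNU5B-1 had 3, 9 and 4 reads in siDyskerin libraries, 16, 6 and 7 in siGAR1 libraries and 13, 7 and 3 in siControl libraries. Both were left out of the test by its filter on low counts, and no change was detectable at this depth. Most U5 reads belonged to RNU5E-1, a related U5 gene that took 71.9 to 80.0% of the U5 reads of each library, and RNU5A-1 with RNU5B-1 took 2.74 to 8.23%. Of other annotated U5 copies, RNU5A-8P had 191 reads over all libraries, RNU5E-4P 125 and RNU5D-1 23, where RNU5A-1 with RNU5B-1 had 111.

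Among the minor members RNU12 was read most. It had 287.8, 466.6 and 278.6 normalized reads in siDyskerin libraries, 834.3, 450.6 and 523.9 in siGAR1 libraries and 297.5, 374.0 and 400.2 in siControl libraries. All siGAR1 libraries stood above all siControl libraries, and siDyskerin library 2 stood among the siGAR1 libraries. RNU11, its partner in the U11/U12 di-snRNP, had 60.8, 74.4 and 43.8 normalized reads in siDyskerin libraries, 138.9, 66.7 and 65.3 in siGAR1 libraries and 62.6, 77.1 and 92.1 in siControl libraries. All groups overlapped for RNU11, and siGAR1 library 1 alone stood above the siControl libraries.

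The minor counterparts of U4 and U6 were read less. RNU6ATAC had 35.1, 64.8 and 31.1 normalized reads in siDyskerin libraries, 111.9, 63.6 and 53.0 in siGAR1 libraries and 47.1, 50.2 and 46.7 in siControl libraries. The siGAR1 libraries stood above the siControl libraries and overlapped with the siDyskerin libraries. RNU4ATAC had 7.60, 12.3 and 11.3 normalized reads in siDyskerin libraries, 27.03, 9.09 and 13.6 in siGAR1 libraries and 10.0, 12.6 and 9.82 in siControl libraries, and all groups overlapped. Of annotated copies, RNU6ATAC12P had 40 reads over all libraries, RNU6ATAC10P 6, RNU4ATAC16P 14, RNU4ATAC11P 5 and RNU4ATAC18P 4.

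**Figure D1:**
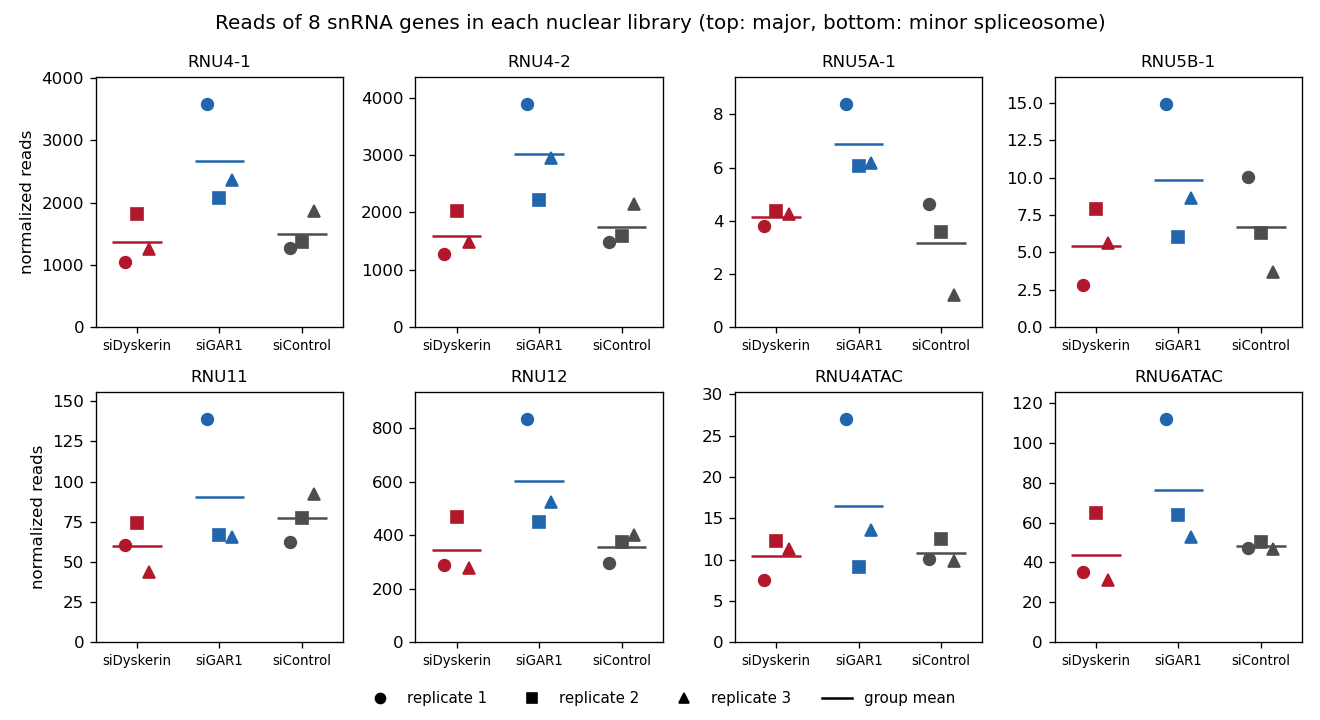
Normalized reads (vertical axis, linear, from 0 in each panel) of the 8 snRNA genes in each library, grouped on the horizontal axis as siDyskerin, siGAR1 and siControl; symbols mark replicate numbers and lines the group means. In every panel siGAR1 library 1 is the highest point, as for RNU4-1 at 3579 normalized reads, and siDyskerin library 2 is the highest siDyskerin point.

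To ask whether loss of dyskerin moved the snRNAs, siDyskerin was set against siControl by edgeR's quasi-likelihood test across 18444 genes with Benjamini-Hochberg adjustment. A gene passed at an adjusted p under 0.01, and was called where its log2 fold change was also beyond 1 in size. Of the 6 tested members 0 passed and 0 were called, and 0 had an unadjusted p under 0.05, also by DESeq2, while 6.4% of all tested genes passed and 0.938% were called. The log2 fold changes were −0.12 ± 0.22 for RNU4-1, −0.12 ± 0.20 for RNU4-2, −0.33 ± 0.30 for RNU11, −0.04 ± 0.24 for RNU12, −0.07 ± 0.45 for RNU4ATAC and −0.11 ± 0.32 for RNU6ATAC (± SE), with adjusted p of 0.540 to 0.953. The 95% interval ran from −0.56 to 0.32 for RNU4-2 and from −1.03 to 0.90 for RNU4ATAC. These intervals are wide given the spread between libraries and, for RNU4ATAC, its few reads, and their bounds are not limits of detection. RNU4-2 did not pass at 0.80 ± 0.20 (SE) in siGAR1 against siControl in the same fit (adjusted p = 0.0260). The smallest change that would pass was not tested. In a bulk fraction, less RNA per nucleus and fewer nuclei of a kind cannot be told apart.

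The siGAR1 nuclei were set against siControl nuclei in the same fit, to see the effect of losing the other H/ACA protein. The fitted values of the 6 tested members were all above 0, but 0 passed and 0 were called, against 3.42% passed and 0.282% called of all tested genes. RNU4-1 averaged 2672 ± 801 normalized reads in siGAR1 and 1502 ± 321 in siControl nuclei (SD, n = 3 each), and the fitted log2 fold change was 0.84 ± 0.22 (SE, adjusted p = 0.0304). RNU4-2 averaged 3016 ± 838 in siGAR1 and 1738 ± 360 in siControl nuclei, which gave 0.80 ± 0.20 on the log2 scale (adjusted p = 0.0260). RNU12 averaged 602.9 ± 203.7 in siGAR1 and 357.2 ± 53.4 in siControl nuclei, which gave 0.77 ± 0.23 on the log2 scale (adjusted p = 0.0563). The remaining log2 fold changes were 0.68 ± 0.30 for RNU6ATAC, 0.63 ± 0.42 for RNU4ATAC and 0.25 ± 0.29 for RNU11 (adjusted p 0.190 to 0.645). At an unadjusted p under 0.05 there were 4 of 6 members by edgeR, as were 24.0% of all tested genes, and 3 by DESeq2.

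In 4 of the 6 tested members (RNU4-1, RNU4-2, RNU12 and RNU6ATAC) every siGAR1 library stood above every siControl library, as did 13.6% of all tested genes. These values rested in part on siGAR1 library 1. Without it the log2 fold changes over siControl were 0.56 for RNU4-1 (adjusted p = 0.129), 0.56 for RNU4-2 (adjusted p = 0.111), 0.44 for RNU12 (adjusted p = 0.244), 0.28 for RNU6ATAC and 0.04 for RNU4ATAC, and RNU11 turned to −0.22. In an edgeR fit with no filter on low counts, RNU4-1, RNU4-2 and RNU12 passed (largest adjusted p 3.21e-07). Their log2 fold changes there were 0.82, 0.78 and 0.75, little different from the main fit. Genes called over all rose from 52 to 154 in that fit. It also tested genes that the filter had left out, so this count cannot show whether p-values of other genes fell alike.

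**Figure D2:**
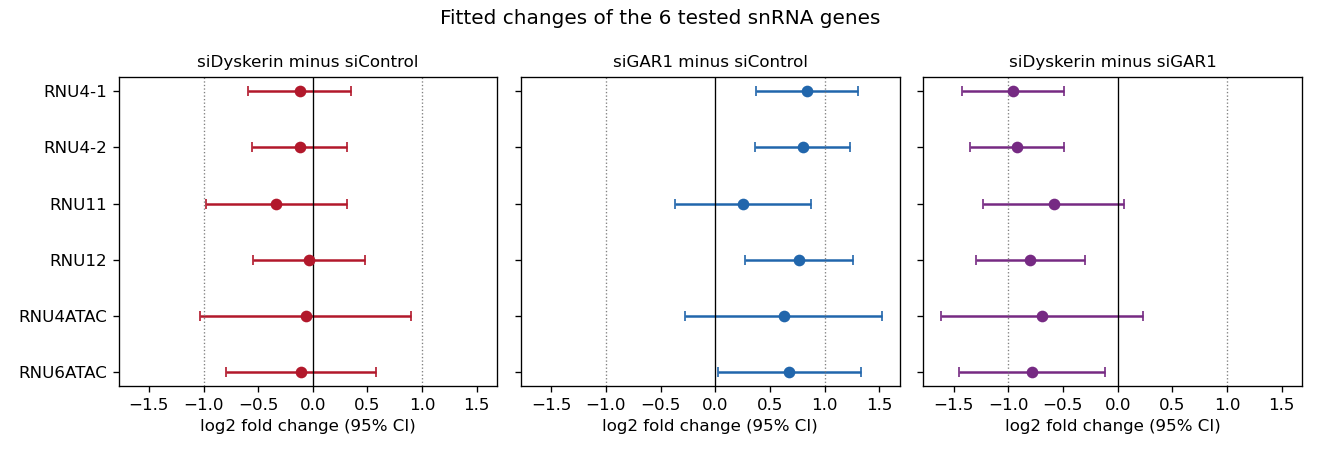
Fitted log2 fold changes (horizontal axis) with 95% confidence intervals of the 6 tested snRNA genes (vertical axis) in the 3 comparisons, in panels from left to right; dotted lines mark a log2 fold change of 1 in either direction. The siDyskerin minus siControl intervals all span 0, and RNU4-1 lies at 0.84 in siGAR1 minus siControl and at −0.96 in siDyskerin minus siGAR1.

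The 2 knockdowns were then set directly against each other, a comparison that shares its libraries with the other two. RNU4-2 was lower in siDyskerin than in siGAR1 nuclei, with 1591 ± 384 normalized reads in siDyskerin and 3016 ± 838 in siGAR1 nuclei (SD, n = 3 each) and a log2 fold change of −0.92 ± 0.20 (SE, adjusted p = 0.00964). It was the 1 member of 6 that passed, with 0 called, where 5.39% of all tested genes passed and 0.721% were called. RNU4-1 was close to it at −0.96 ± 0.22 (adjusted p = 0.0120), followed by RNU12 at −0.80 ± 0.23 (adjusted p = 0.0390), RNU6ATAC at −0.78 ± 0.31, RNU4ATAC at −0.69 ± 0.43 and RNU11 at −0.59 ± 0.30 (adjusted p 0.123 to 0.339). Every siDyskerin library was below every siGAR1 library in 2 of the 6 tested members, RNU4-1 and RNU4-2, and in 14.6% of all tested genes. RNU4-2 kept its direction in all 19 alternatives run and passed in 6 of them. Leaving out 1 library ended its pass for siGAR1 library 1 (log2 fold change −0.69, adjusted p = 0.0405), siGAR1 library 3 (adjusted p = 0.0331), siDyskerin libraries 1 and 3 (adjusted p = 0.0481 and 0.0519) and siControl libraries 1 and 2 (adjusted p = 0.0110 and 0.0123). With DESeq2 RNU4-2 did not pass (adjusted p = 0.0124) and RNU12 did (adjusted p = 0.00578). Without siDyskerin library 2, in which all 8 members were highest of their group, RNU4-1 passed as well (log2 fold change −1.22, adjusted p = 0.00602).

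Beside the members, siGAR1 library 1 was high in some other noncoding RNAs. RNU2-2P, a U2 gene of 191 bases, stood at 1.84, 1.14 and 1.26 times the siControl mean in siGAR1 libraries 1 to 3, and RNU5E-1 (120 bases) at 2.05, 1.22 and 1.35 times. RNVU1-28, a variant U1 gene of 164 bases, stood at 2.01, 1.25 and 1.44 times. SNORD3A, a U3 small nucleolar RNA of the C/D box class, stood at 1.75, 1.02 and 1.36 times. Its annotated transcript has 699 bases, which is the length of the gene model and was not measured on the RNA. RMRP and RN7SK did not follow: RMRP (264 bases) stood at 0.92, 1.04 and 1.05 times and RN7SK (328 bases) at 0.96, 1.195 and 1.194 times the siControl mean in the same libraries. SNORD3A, RMRP and RN7SK were chosen after their values were seen. Scaled to the reads of SNORD genes, of which SNORD3A took 85.6 to 94.0% in each library, RNU4-1 was −0.31 and RNU4-2 −0.28 in siDyskerin against siGAR1, and 0 of 6 members passed in any comparison. The part that whatever set these RNAs apart in library 1 has in the member values was not tested.

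**Figure D3:**
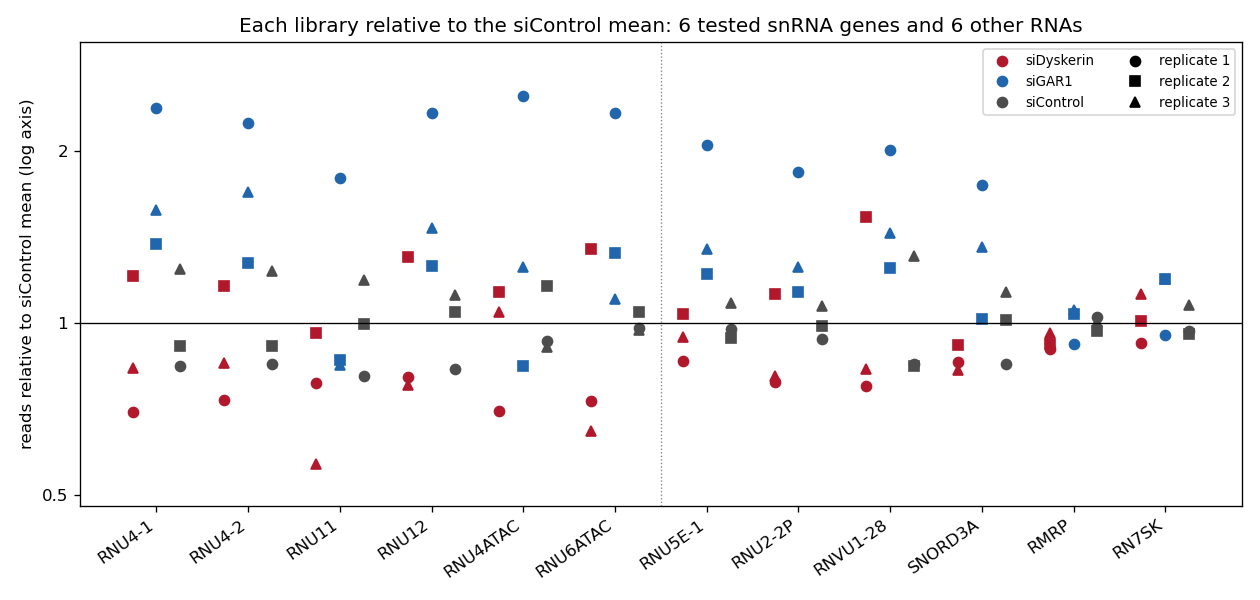
Reads of each library divided by the siControl mean (vertical axis, log scale) for the 6 tested snRNA genes, left of the dotted line, and for 6 other RNAs, right of it; colors mark siDyskerin, siGAR1 and siControl and symbols the replicate. The siGAR1 library 1 point is the highest for 10 genes, such as RNU4ATAC at 2.501, and lies at 0.92 for RMRP and 0.96 for RN7SK.

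The 6 tested members varied together from library to library. Over the 9 libraries the Pearson correlation of log2 normalized reads between them ran from 0.69 to 0.99, highest for the U4 pair, a description in which all pairs share libraries and depth. Pairs with RNU5A-1 or RNU5B-1, which had few reads, ran from 0.09 to 0.80. The genes outside the members whose log2 CPM was most like that of the summed major members were RNU2-2P (r = 0.968), ENSG00000270022 (r = 0.963), which holds RNU12, and RNU5E-1 (r = 0.958), of 12017 genes compared over 9 libraries. For the summed minor members they were ENSG00000270022 (r = 0.995), RNU2-2P (r = 0.988) and WDR74 (r = 0.971), whose annotated gene spans RNU2-2P on the same strand.

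The balance between the minor and major members was read as minor reads over major reads within each library, so that the depth cancels. The log2 ratio was −2.58, −2.64 and −2.91 in siDyskerin libraries, −2.75, −2.86 and −3.02 in siGAR1 libraries and −2.73, −2.53 and −2.87 in siControl libraries. Group means were −2.71 ± 0.18 in siDyskerin, −2.88 ± 0.14 in siGAR1 and −2.71 ± 0.17 in siControl nuclei (SD, n = 3 each), and all groups overlapped. The siGAR1 minus siControl difference of −0.17 was no larger than the spread within siControl. Minor reads were 10.96 to 14.8% of all member reads. The sums were set by a few genes, since U4 gave 99.5 to 99.9% of the major reads and RNU12 gave 71.3 to 79.9% of the minor reads. Other snRNA genes, such as RNU2-2P with 57191 reads over the 9 libraries, are not in the sums, so the ratio does not measure the 2 spliceosomes as a whole.

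**Figure D4:**
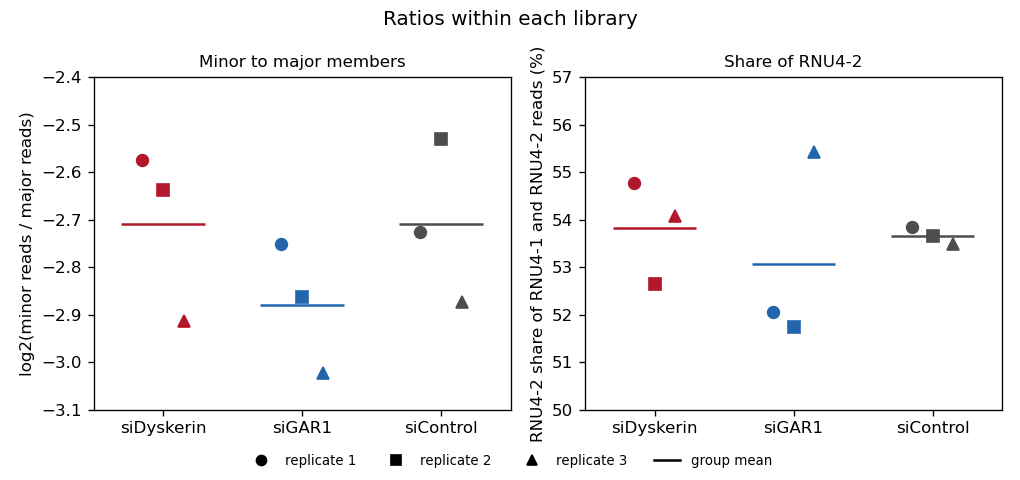
Within-library ratios by group on the horizontal axis: the log2 ratio of minor to major reads (left) and the share of RNU4-2 in U4 reads, in percent (right); symbols mark replicates and lines the means, and neither axis starts at 0. The log2 ratios of all groups overlap between −3.02 and −2.53, and the RNU4-2 shares lie between 51.7 and 55.4%.

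Among other snRNA genes RNU2-2P had the most reads, 57191 over the 9 libraries, followed by RNU5E-1 with 1375 and RNVU1-28 with 1085. Of 43 such genes listed, 22 had a read, and 6 were tested. None of these 6 passed in any comparison by edgeR or DESeq2 (4 had an unadjusted p under 0.05 in siGAR1 against siControl and 3 in siDyskerin against siGAR1). Their median log2 fold change was 0.02 in siDyskerin against siControl, 0.59 in siGAR1 against siControl and −0.60 in siDyskerin against siGAR1, where the medians over all tested genes were 0.00, 0.01 and 0.00. RNU2-2P averaged 5191 ± 1078 normalized reads in siDyskerin, 8075 ± 2163 in siGAR1 and 5720 ± 384 in siControl nuclei (SD, n = 3 each).

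At an unadjusted p under 0.05 stood 26.1% of all tested genes in siDyskerin against siControl, 24.0% in siGAR1 against siControl and 25.5% in siDyskerin against siGAR1. In the same order, 6.4%, 3.42% and 5.39% of all tested genes passed. These shares are the background of such counts in each list, here and below. Of 15 Sm and LSm ring proteins, 1 passed in siDyskerin against siControl and 0 in siGAR1 against siControl by edgeR or DESeq2 (4 with an unadjusted p under 0.05). The 1 was LSM7, a subunit of the ring that binds the end of U6, which averaged 1613 ± 51.4 normalized reads in siDyskerin and 2224 ± 92.0 in siControl nuclei (log2 fold change −0.46 ± 0.09, adjusted p = 0.00244). Of 17 proteins of the tri-snRNP or its assembly, 0 passed in siDyskerin or siGAR1 against siControl by edgeR (5 with an unadjusted p under 0.05 in each). By DESeq2 3 passed in siDyskerin and 2 in siGAR1 against siControl. In siDyskerin against siGAR1, 4 passed by edgeR and were lower in siDyskerin nuclei (5 with an unadjusted p under 0.05). These 4 were PRPF4 (log2 fold change −0.50 ± 0.07, adjusted p = 5.01e-04) and PRPF3 (−0.33 ± 0.07, adjusted p = 0.00667), which hold the U4/U6 pair, SART1 (−0.48 ± 0.09, adjusted p = 0.00301), which helps the tri-snRNP join the spliceosome, and SART3 (−0.36 ± 0.07, adjusted p = 0.00408), which rejoins U4 and U6, and they are named here after their values were seen. Of 15 minor spliceosome proteins, 0 passed in any comparison by edgeR (1 had an unadjusted p under 0.05 in siDyskerin against siControl and 2 in each of the others, and by DESeq2 2 passed in siGAR1 against siControl).

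Among 29 genes for snRNA transcription and 3′ end processing, 3 were lower in siDyskerin than in siControl nuclei and 0 passed in siGAR1 against siControl by edgeR (8 with an unadjusted p under 0.05, and 2 passed by DESeq2). INTS5, an Integrator subunit, averaged 412.2 ± 43.6 normalized reads in siDyskerin and 631.3 ± 39.6 in siControl nuclei (log2 fold change −0.61 ± 0.10, adjusted p = 0.00119). TOE1, a nuclease that trims the ends of snRNAs, averaged 1698 ± 30.2 in siDyskerin and 2266 ± 49.6 in siControl nuclei (log2 fold change −0.42 ± 0.07, adjusted p = 8.38e-04). SNAPC1, a subunit of the snRNA promoter complex, averaged 2999.98 ± 70.1 in siDyskerin and 3960.0 ± 464.9 in siControl nuclei (log2 fold change −0.40 ± 0.08, adjusted p = 0.00519). In siDyskerin against siGAR1, INTS2 (−0.34 ± 0.07) and ELL (−0.44 ± 0.09) were lower (adjusted p of 0.00648 and 0.00764), again named after their values were seen. In that comparison 12 of the 29 had an unadjusted p under 0.05.

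Of 20 genes for snRNP export, Sm ring assembly and import, 0 passed in siDyskerin against siControl by edgeR or DESeq2 (3 with an unadjusted p under 0.05) and 1 was lower in siGAR1 than in siControl nuclei. It was CLNS1A, a chaperone of Sm proteins, with 17039 ± 1903 normalized reads in siGAR1 and 22710.1 ± 334.6 in siControl nuclei (log2 fold change −0.41 ± 0.07, adjusted p = 0.00359). In siDyskerin against siGAR1, CLNS1A (0.45 ± 0.07) and the cap-binding gene NCBP2 (0.30 ± 0.06) were higher and the Sm methylase gene PRMT5 (−0.28 ± 0.06) was lower (adjusted p 0.00153 to 0.00970), NCBP2 and PRMT5 being named after their values were seen. In that comparison 7 of the 20 had an unadjusted p under 0.05.

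Called genes were found in the list that holds the guides of snRNA modification and in that of the siRNA targets, DKC1 and GAR1. Of 23 tested Cajal body proteins and scaRNAs, 4 passed, were called and fell in siDyskerin against siControl, and 0 passed in siGAR1 against siControl (2 with an unadjusted p under 0.05). By DESeq2, 2 passed in siDyskerin and 1 in siGAR1 against siControl. All 4 were H/ACA scaRNAs. SCARNA13 averaged 700.3 ± 93.6 normalized reads in siDyskerin and 1755 ± 47.9 in siControl nuclei (log2 fold change −1.33 ± 0.09, adjusted p = 1.40e-06). SCARNA16 averaged 58.5 ± 12.02 in siDyskerin and 190.1 ± 25.1 in siControl nuclei (log2 fold change −1.68 ± 0.20, adjusted p = 8.41e-05). SCARNA18 (0.763 ± 0.714 in siDyskerin, 9.14 ± 3.05 in siControl) and SCARNA20 (4.14 ± 0.303 in siDyskerin, 20.2 ± 6.16 in siControl) were read a few times per library. Their log2 fold changes were −3.46 ± 0.99 and −2.23 ± 0.50 (± SE). Both met the filter on low counts only through siGAR1 and siControl libraries, so their fall is no independent support. In the same libraries the 6 tested snRNAs had fitted log2 fold changes between −0.33 and −0.04. The lists were not tested as sets.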

How the data were processed

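Nuclear RNA of U2OS cells (9 libraries) was depleted of rRNA, made into strand-specific total RNA libraries and sequenced as 50-base pairs. The authors removed rRNA and tRNA reads (Bowtie2 2.4.1) and quantified transcripts with Salmon 1.2.0 on GENCODE 27 (GRCh38). The deposited values are estimated counts, with TPM and transcript lengths per the file headers. The counts were nearly all whole numbers, and reads of overlapping transcripts can stand in more than 1 of them. Of 200401 transcripts, 195887 matched GENCODE 44 and were summed to genes, and the unmatched took 3.69 to 3.84% of reads.

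Estimated counts were rounded and fitted over all 9 libraries with edgeR 4.0.16 (R 4.3.3, TMM factors 0.982 to 1.02, filterByExpr, quasi-likelihood F-test), which was tested on simulated data. Normalized reads are counts scaled to the mean effective library of 67271164. DESeq2 1.42.0 was an alternative. The others were RLE factors, no filter (at least 1 read), length-scaled TPM counts, a replicate block, a fit of only the groups compared, family sums, library size from protein-coding genes and leaving out each library. Scaling to SNORD genes and leaving out siGAR1 library 1 with siDyskerin library 2 were chosen after seeing the data.

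Named were all 8 members. Of each list every called gene was named, and the 3 of smallest p among those that passed, in each knockdown against siControl. The 3 most read other snRNA genes, both siRNA targets and genes overlapping a member were also named. The most read family copies and the 3 genes most like each member sum completed the rule. Members and lists were chosen with earlier results of these data known. The replicates are biological per the study, with no further detail, so that p-values measure the spread between these libraries.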

Additional observations from a re-analysis of the deposited data

Results flagged for a closer look

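RNU4-2 was the 1 tested member that passed when the 2 siRNAs were tested directly against each other. Its log2 fold change was −0.92 in siDyskerin against siGAR1 (edgeR quasi-likelihood test, adjusted p = 0.00964, all 3 siDyskerin libraries below all 3 siGAR1 libraries). RNU4-1 had the same separation and lay close at −0.96 (adjusted p = 0.0120). Of all tested genes 5.39% passed, and 14.6% had every siDyskerin library below every siGAR1 library. RNU4-2 passed in 6 of 19 alternatives, but not without siGAR1 library 1 (adjusted p = 0.0405) or with SNORD scaling (log2 fold change −0.28, adjusted p = 0.334). With DESeq2 RNU4-2 did not pass (adjusted p = 0.0124) and RNU12 did (adjusted p = 0.00578). Single libraries were examined by leaving each out in turn, and groups of 3 libraries give little basis for calling 1 of them an outlier.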

How the results depend on the processing

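In siDyskerin against siGAR1, the number of members that passed was 1 as reported. It was 0 with RLE factors, length-scaled TPM counts, SNORD scaling and a fit of only the groups compared, 3 with no filter, 2 with family sums (the U4 family counted for both of its members), and 0 to 2 when each library was left out. In siGAR1 against siControl it was 3 with no filter, against 0 as reported, and in siDyskerin against siControl 0 under every alternative run. The replicate numbers gave at most a weak sign of pairing: 1 of 9 same-number pairs had a correlation of deviations above 0.1 (range −0.07 to 0.10). Different-number pairs ran from −0.10 to 0.06, and the highest value of all was of a same-number pair, so weak pairing was not excluded. With the replicate block 0 members passed in siDyskerin against siGAR1 (RNU4-2 adjusted p = 0.0208).

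Genes called over all tested were 173 in siDyskerin against siControl (347 with no filter, 127 to 194 when each library was left out). They were 52 in siGAR1 against siControl (154 with no filter, 34 with length-scaled TPM counts, 93 with SNORD scaling, 32 without siGAR1 library 1 and siDyskerin library 2, and 34 to 55 when each library was left out). They were 133 in siDyskerin against siGAR1 (282 with no filter, 922 with SNORD scaling, 64 without those 2 libraries, and 81 to 153 when each library was left out).

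The small siDyskerin minus siControl values changed sign when single libraries were left out, over −0.39 to 0.0560 for RNU4-1, −0.34 to 0.0490 for RNU4-2, −0.34 to 0.0819 for RNU12, −0.24 to 0.12 for RNU4ATAC and −0.53 to 0.0547 for RNU6ATAC. With SNORD scaling they were 0.11, 0.12, 0.18, 0.14 and 0.0805 in that order. RNU11 in siGAR1 against siControl ran from −0.22 to 0.43 when each library was left out, and was −0.20 with SNORD scaling and −0.21 without siGAR1 library 1 and siDyskerin library 2. In siDyskerin against siGAR1, SNORD scaling gave 0.0799 for RNU11 and 3.93e-05 for RNU4ATAC. The minor to major ratio from a mean of log2 normalized counts over members differed from siControl by −0.20 in siDyskerin and −0.39 in siGAR1, where RNU5A-1 and RNU5B-1, with 1 to 16 reads, weigh as much as U4. The cause of these changes was not tested.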
